A study of Homo sapiens with 17 samples.

Results

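The 10 genes described here are 7 matrix metalloproteinases (MMP1, MMP3, MMP7, MMP9, MMP10, MMP13 and MMP14) and 3 tissue inhibitors of metalloproteinases (TIMP1, TIMP2 and TIMP3), chosen by symbol from the 26457 RefSeq genes of the mRNA-seq table. SW480, an established line from a human colon tumour, carries a missense mutant p53 (mutp53). Stable SW480 lines carried a doxycycline-inducible shRNA against LacZ (shLacZ, control) or against p53 (shp53, mutp53-depleted), and both received doxycycline at 1 µg/ml. Libraries were made from each line at 0 h and following TNF-α (12.5 ng/ml) for 16 h, with 2 replicates, A and B, in each of the 4 groups. The comparisons addressed whether TNF-α and mutp53 depletion altered the mRNA of these genes, and whether the TNF-α response differed between the lines. Each line is 1 shRNA construct in 1 cell line, so an effect of the construct other than on p53 cannot be told apart from depletion.

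MMPs are zinc-dependent endopeptidases that are made as inactive proenzymes and that cut collagens, laminins and other proteins of the extracellular matrix. TIMPs bind the active site of MMPs and block it, and TIMP2 also forms a complex with MMP14 at the cell surface that activates pro-MMP2. In colon tumours both families are made by the tumour cells and by the stroma, and MMP9 is a well known NF-κB target gene in cells exposed to TNF-α.

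Levels are given as normalized reads, which are reads on the exons of a gene put on 1 common library total. Library depth on genes ran from 6108488 to 13809578 reads, replicate A was the deeper in every group, and 1 read equals between 0.67 and 1.515 normalized reads. Differences were tested with limma on log2(normalized reads + 1) over 14800 genes, those whose mean reached 2.5. A gene "rose" or "fell" at a Benjamini-Hochberg adjusted p under 0.05 over these genes, and was called at least 2-fold changed where its fold change also reached 2. Of the 10 genes, 5 entered the fit (MMP9, MMP14, TIMP1, TIMP2 and TIMP3) and 5 lay below the minimum (MMP1, MMP3, MMP7, MMP10 and MMP13). With 2 libraries per group, p-values measure the spread between these libraries.

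The RefSeq promoter table (GRCh38.p14) held 5 of the 10 genes, and these stretches show the promoters of 2 genes that were silent or nearly so and 3 that were measured. Each runs from 170 bases before the transcription start to the base before it, on the strand of the gene, with capitals for the AP-1 motif TGANTCA, the GC box GGGCGG and the TATA box TATAAA on either strand.
MMP7, chr11:102530748-102530917, minus strand: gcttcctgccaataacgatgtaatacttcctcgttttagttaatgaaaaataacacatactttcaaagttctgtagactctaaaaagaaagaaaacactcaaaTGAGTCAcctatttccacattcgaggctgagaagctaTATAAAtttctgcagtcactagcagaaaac
MMP10, chr11:102780629-102780798, minus strand: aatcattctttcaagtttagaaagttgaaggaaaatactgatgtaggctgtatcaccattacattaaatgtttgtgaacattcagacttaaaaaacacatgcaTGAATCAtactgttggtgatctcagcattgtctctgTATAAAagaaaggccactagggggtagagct
MMP14, chr14:22836415-22836584, plus strand: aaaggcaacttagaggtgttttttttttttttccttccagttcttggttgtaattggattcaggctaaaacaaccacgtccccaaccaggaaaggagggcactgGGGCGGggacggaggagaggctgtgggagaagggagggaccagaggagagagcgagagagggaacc
TIMP1, chrX:47582266-47582435, plus strand: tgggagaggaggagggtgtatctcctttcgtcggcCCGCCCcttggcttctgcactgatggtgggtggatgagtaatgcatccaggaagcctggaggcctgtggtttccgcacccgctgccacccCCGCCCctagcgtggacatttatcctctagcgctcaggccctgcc
TIMP3, chr22:32801535-32801704, plus strand: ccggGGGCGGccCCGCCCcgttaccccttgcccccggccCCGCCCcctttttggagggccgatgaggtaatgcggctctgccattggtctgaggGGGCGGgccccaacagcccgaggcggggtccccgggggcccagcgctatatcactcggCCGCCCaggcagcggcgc
The MMP7 and MMP10 promoters each held 1 AP-1 match, 67 to 61 bases before the start, which reads as the motif on both strands, and a TATA box that began 30 and 31 bases before the start. The MMP14, TIMP1 and TIMP3 promoters held neither within the 300 bases of the table, but held 1, 2 and 5 GC boxes. Over all 35116 promoters of that length, 7.71% held an AP-1 match, 11.5% a TATA box, 45.0% a GC box and 5.91% a match to the NF-κB consensus, which was in none of the 5. GC content over the stretches shown was 34.7% for MMP7, 35.3% for MMP10, 52.4% for MMP14, 62.9% for TIMP1 and 75.9% for TIMP3. These matches describe the letters of the window and not binding. MMP1, MMP3, MMP9, MMP13 and TIMP2 are named only.

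MMP9 and MMP14 rose with TNF-α in both lines, and no TIMP rose. MMP9 (NM_004994, gelatinase B, chr20:44637547-44645200 in the hg19 coordinates of the table) went from at most 3 reads per library at 0 h to between 128 and 588 at 16 h. In control cells MMP9 had 2.18 and 0 normalized reads at 0 h and 568 and 370 at 16 h, in replicates A and B. In mutp53-depleted cells it had 0.67 and 0 normalized reads at 0 h and 172 and 158 at 16 h. Both 16 h groups lay far above both 0 h groups, and at 16 h each control library lay above each mutp53-depleted library.

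The 0 h levels rest on 3 reads in the control line and 1 read in the mutp53-depleted line, so the MMP9 induction is given as a ratio of reads per total with its exact 95% counting interval. It was 332-fold (113 to 1611) in the control line and 369-fold (65.8 to 14631) in the mutp53-depleted line. On the log2(normalized reads + 1) scale, where the added 1 sets the size of so large a change, MMP9 rose by 8.01 ± 0.46 (SE, limma, adjusted p = 2.56e-10) in the control line and by 7.003 ± 0.46 (adjusted p = 2.35e-09) in the mutp53-depleted line. The 2 inductions differed by -1.01 (95% interval -2.37 to 0.36, adjusted p = 0.551), so no difference in induction was shown and the interval is wide.

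At 16 h the MMP9 level fell with depletion, from 469 ± 140 normalized reads (SD, n = 2) in the control line to 165 ± 9.83 in the mutp53-depleted line. The log2 difference was -1.47 ± 0.46 (SE, limma, adjusted p = 0.0120), which leaves 0.361 times the control level, with a 95% interval of -2.44 to -0.51. This call depended on single libraries: without control 16 h replicate A the difference was -1.16 (adjusted p = 0.156), and without mutp53-depleted 16 h replicate B it was -1.41 (adjusted p = 0.0688). A pseudocount of 0.1 also lost it (limma, adjusted p = 0.302), whereas edgeR and DESeq2 on the recovered reads gave adjusted p values of 2.73e-08 and 3.25e-10. The limma spread of a gene is shared by all 4 groups, so for MMP9 it also takes in the 0 h libraries, which had 3, 0, 1 and 0 reads. At 0 h both lines were at or under the 3-read limit of each library, so no direction is read from their difference.

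MMP14 (NM_004995, chr14:23305742-23316808), the membrane-bound MT1-MMP that cuts collagen at the cell surface, was the most abundant of the 7 MMPs per kilobase in every library. Its control libraries gave 901 and 1004 normalized reads at 0 h and 1909 and 1556 at 16 h. The mutp53-depleted libraries gave 1073 and 974 at 0 h and 2425 and 2202 at 16 h. At 0 h the lines overlapped, whereas at 16 h both mutp53-depleted libraries lay above both control libraries.

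TNF-α raised MMP14 by 0.86 ± 0.09 on the log2 scale in the control line, or 1.81-fold (SE, limma, adjusted p = 1.23e-06), and by 1.18 ± 0.09 in the mutp53-depleted line, or 2.26-fold (adjusted p = 2.62e-08). Only the second passed 2-fold, but the difference between the 2 responses, 0.32 (95% interval 0.04 to 0.60), had an adjusted p of 0.269. The level at 16 h rose with depletion by 0.42 ± 0.09 on the log2 scale, or 1.34-fold (adjusted p = 0.000932), which is the opposite direction to MMP9 in the same libraries. Depletion at 0 h gave 0.10 (interval -0.09 to 0.30, adjusted p = 0.370). Without control 16 h replicate B the rise in the control line was 1.00 and passed 2-fold.

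**Figure D1:**
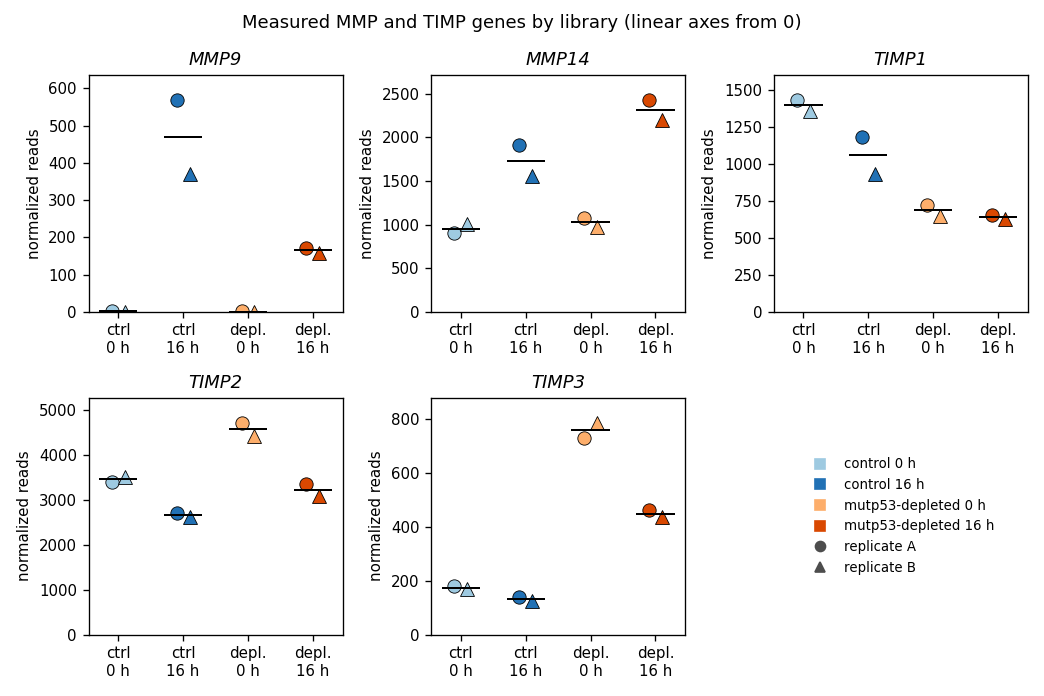
Normalized reads of the 5 measured genes in each of the 8 libraries; each panel has its own linear axis from 0, circles are replicate A, triangles replicate B and black lines group means. MMP9 is near 0 in both 0 h groups and higher in control (469) than mutp53-depleted (165) cells at 16 h, whereas TIMP3 is at 437 or above in the 4 mutp53-depleted libraries and at 179 or below in the 4 control libraries.

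The 3 TIMPs were all expressed, and depletion moved them in different directions. TIMP1 (NM_003254, chrX:47441690-47446190), a secreted inhibitor that binds pro-MMP9, fell with depletion at both times. Its normalized reads were 1432 and 1360 in the control line at 0 h, 1180 and 935 at 16 h, 725 and 649 in the mutp53-depleted line at 0 h, and 654 and 629 at 16 h. Every control library lay above every mutp53-depleted library.

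Depletion lowered TIMP1 by -1.02 ± 0.10 on the log2 scale at 0 h, to 0.492 times the control level (SE, limma, adjusted p = 7.22e-08), and by -0.71 ± 0.10 at 16 h, to 0.611 times (adjusted p = 6.40e-06). The 0 h change was at the 2-fold line and fell short of it without control 0 h replicate A (-0.99) or mutp53-depleted 0 h replicate B (-0.94). With TNF-α, TIMP1 fell by 0.41 on the log2 scale in the control line (adjusted p = 0.00371), a call that was lost without control 16 h replicate B (-0.24, adjusted p = 0.0757). In mutp53-depleted cells the difference was -0.10 (interval -0.30 to 0.11, adjusted p = 0.515), and the 2 responses differed by 0.31 (adjusted p = 0.302). TIMP1 lies within SYN1, which is on the opposite strand and had 104 reads over the 8 libraries, under a count that the table's header gives as strand-specific.

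TIMP3 (NM_000362, chr22:33196802-33259028), which stays bound to the matrix and also inhibits ADAM17, rose with depletion at both times. The control line had 179 and 168 normalized reads at 0 h and 141 and 125 at 16 h. The mutp53-depleted line had 731 and 786 at 0 h and 462 and 437 at 16 h. Every mutp53-depleted library lay above every control library, and within each line the 16 h libraries lay below the 0 h libraries.

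At 0 h TIMP3 rose with depletion by 2.12 ± 0.11 on the log2 scale, or 4.35-fold (SE, limma, adjusted p = 2.81e-11), and at 16 h by 1.75 ± 0.11, or 3.36-fold (adjusted p = 2.74e-10). TNF-α lowered it in the mutp53-depleted line by -0.75 ± 0.11 (adjusted p = 3.58e-05), to 0.593 times its 0 h level. In control cells it fell by -0.38 ± 0.11 (adjusted p = 0.0125), which edgeR (adjusted p = 0.0543) and DESeq2 (adjusted p = 0.172) did not call, nor limma without control 0 h replicate A (adjusted p = 0.0767) or control 16 h replicate B (adjusted p = 0.0864). The difference between the 2 responses was -0.37 (interval -0.69 to -0.05, adjusted p = 0.262).

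TIMP2 (NM_003255, chr17:76849059-76921472), which inhibits active MMP2 and takes part in its activation by MMP14, moved by less than 2-fold in every contrast. It had 3400 and 3513 normalized reads in the control line at 0 h, 2699 and 2608 at 16 h, 4711 and 4423 in the mutp53-depleted line at 0 h, and 3358 and 3075 at 16 h. At each time both mutp53-depleted libraries lay above both control libraries.

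TNF-α lowered TIMP2 by -0.38 ± 0.07 on the log2 scale in the control line (SE, limma, adjusted p = 0.000391) and by -0.51 ± 0.07 in the mutp53-depleted line (adjusted p = 2.31e-05). Depletion raised it by 0.40 ± 0.07 at 0 h (adjusted p = 8.91e-05) and 0.28 ± 0.07 at 16 h (adjusted p = 0.00267). The genes around TIMP2 on chromosome 17 moved by a like amount: the median of the other 50 tested genes in a window around it was 0.35 at 0 h and 0.27 at 16 h, and with that median removed TIMP2 differed by 0.05 (adjusted p = 0.600) and 0.01 (adjusted p = 0.952). For MMP9, MMP14, TIMP1 and TIMP3 this local median lay between -0.09 and 0.13. CEP295NL, on the same strand within TIMP2, had 81 reads over the 8 libraries.

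**Figure D2:**
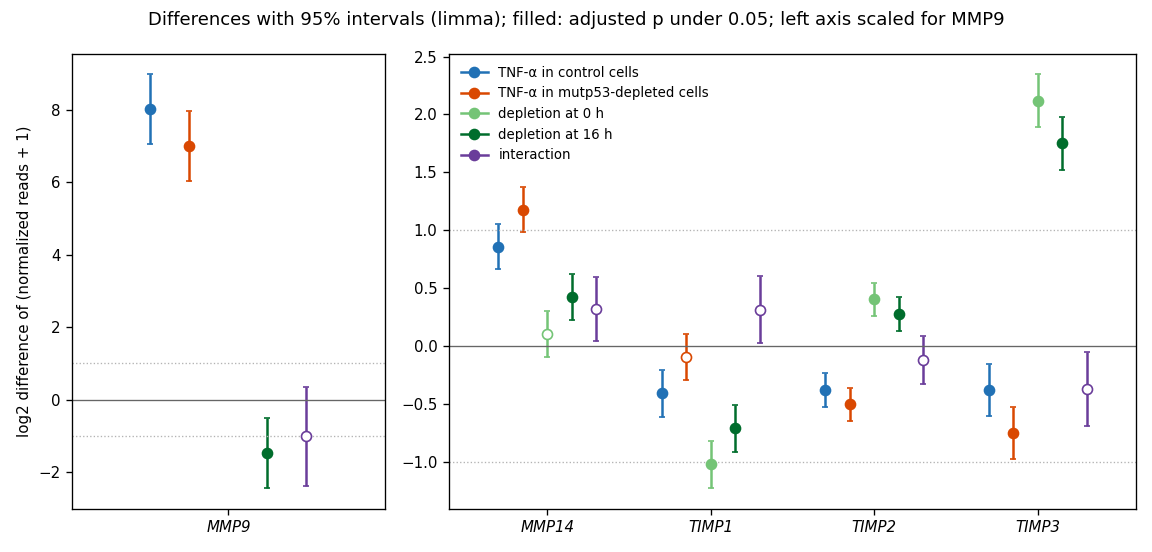
Log2 differences of normalized reads + 1 with 95% intervals from limma, by contrast; filled points have an adjusted p under 0.05, dotted lines mark 2-fold, MMP9 has its own axis, and MMP9 at 0 h is left out because both lines had 3 reads or fewer per library. TIMP3 is highest for depletion (2.12 and 1.75), TIMP1 is lower in the mutp53-depleted line at both times (-1.02 and -0.71), MMP9 is lower at 16 h (-1.47), and no interaction point is filled.

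Read against all tested genes, depletion moved much of the transcriptome, so the count of members that changed is not in itself a result about them. At 0 h, 2 of the 5 tested members rose (TIMP2 and TIMP3) and 1 fell (TIMP1), where 27.3% of all tested genes rose and 25.2% fell. With the 2-fold threshold 1 rose (TIMP3) and 1 fell (TIMP1), beside 5.89% and 9.55% of all tested genes. At 16 h, 3 rose (MMP14, TIMP2 and TIMP3) and 2 fell (MMP9 and TIMP1), where 24.9% of all tested genes rose and 26.5% fell. With the 2-fold threshold 1 rose (TIMP3) and 1 fell (MMP9), beside 5.03% and 10.2%.

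For TNF-α in the control line, 2 members rose (MMP9 and MMP14) and 3 fell (TIMP1, TIMP2 and TIMP3), where 11.1% of all tested genes rose and 15.2% fell. Past 2-fold only MMP9 rose and no member fell, beside 2.97% and 4.27%. In mutp53-depleted cells the same 2 MMPs rose and TIMP2 and TIMP3 fell, where 9.8% of all tested genes rose and 16.9% fell, and past 2-fold both MMPs rose and no member fell, beside 1.86% and 4.5%. The median over the 5 members was -0.38 on the log2 scale in the control line and -0.10 in the mutp53-depleted line, against -0.05 and -0.06 over all tested genes. For depletion it was 0.10 at 0 h and 0.28 at 16 h, against 0.03 and -0.01.

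None of the 5 members passed the test of a difference between the 2 TNF-α responses in limma, edgeR or DESeq2, where 0.655% of all tested genes passed upwards and 2.21% downwards in limma. At an unadjusted p under 0.05 there were 3 members (MMP14, TIMP1 and TIMP3), beside 13.5% of all tested genes. Without control 16 h replicate A, TIMP1 passed (0.48, adjusted p = 0.0440).

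Per kilobase of exon, which allows levels to be compared between genes, the 3 TIMPs together outweighed the 7 MMPs in every library. The summed level of the 7 MMPs over that of the 3 TIMPs was 0.0993 and 0.113 in the control line at 0 h, 0.379 and 0.337 at 16 h, 0.136 and 0.133 in the mutp53-depleted line at 0 h, and 0.437 and 0.424 at 16 h. The 16 h libraries of both lines lay above all 0 h libraries, and at each time the mutp53-depleted libraries lay above the control libraries. Both sides of the ratio moved with TNF-α: the mean MMP sum went from 266 to 688 normalized reads per kilobase in the control line and from 288 to 719 in the mutp53-depleted line, and the mean TIMP sum from 2517 to 1916 and from 2147 to 1670. With 2 libraries against 2, no exact permutation test of a ratio can reach 0.05, so these are descriptions.

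The make-up of each sum differed between the lines. TIMP1 was 62.0% and 60.1% of the TIMP sum in the control line at 0 h and 35.9% and 34.5% in the mutp53-depleted line, where TIMP2 came first with 58.1% and 58.6%. TIMP3 was a small part throughout, at most 1.29% in the control line and between 4.89% and 6.93% in the mutp53-depleted line. MMP14 made up between 99.0% and 100% of the sum of the 7 MMPs at 0 h. At 16 h MMP9 made up 31.3% and 26.8% of it in the control line and 9.83% and 9.94% in the mutp53-depleted line. These shares hold for the 7 chosen MMPs, of which 5 were at or near 0. MMP15, outside the 7, had a mean of 65.2 normalized reads per kilobase in the control line and 36.7 in the mutp53-depleted line at 0 h. MMP14 had 266 and 286 there.

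MMP14 with TIMP2 and MMP9 with TIMP1 are pairs known to bind each other, and their ratios showed unlike patterns. MMP14 over TIMP2 was 0.270 and 0.291 in the control line at 0 h and 0.720 and 0.608 at 16 h, and 0.232 and 0.224 in the mutp53-depleted line at 0 h and 0.736 and 0.729 at 16 h. At 16 h both mutp53-depleted libraries lay just above the higher control library, and at 0 h both lay below the control libraries. MMP9 over TIMP1 at 16 h was 0.188 and 0.155 in the control line and 0.103 and 0.0982 in the mutp53-depleted line, so it was lower with depletion although TIMP1 was lower too. TIMP3 over TIMP1 lay between 0.0198 and 0.0222 in the 4 control libraries and between 0.115 and 0.201 in the 4 mutp53-depleted libraries.

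**Figure D3:**
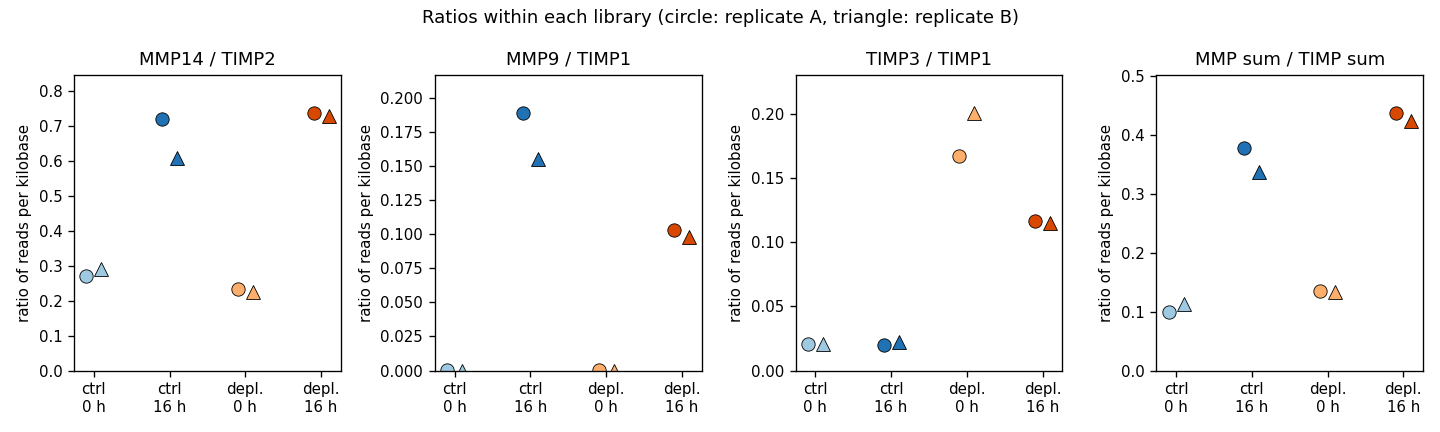
Ratios of reads per kilobase within each library, on linear axes from 0, for MMP14 over TIMP2, MMP9 over TIMP1, TIMP3 over TIMP1 and the sum of the 7 MMPs over that of the 3 TIMPs. The first and last rise from 0 h to 16 h in both lines, MMP9 over TIMP1 at 16 h is higher in the control line, and TIMP3 over TIMP1 separates the lines at both times.

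The remaining 5 genes, MMP1, MMP3, MMP7, MMP10 and MMP13, sit in 1 cluster on chromosome 11 and were at or near 0 in every library. MMP1 and MMP13 are collagenases, MMP3 and MMP10 are stromelysins, and MMP7 is matrilysin, which is made by epithelial cells and in many colon tumours. MMP7 (NM_002423, chr11:102391239-102401478) had 5 reads in control 16 h replicate A, 3 and 1 in the mutp53-depleted 0 h libraries, 2 in mutp53-depleted 16 h replicate A and none in the other 4. MMP10 (NM_002425, chr11:102641233-102651359) had 1 read in control 16 h replicate B and 2 in mutp53-depleted 0 h replicate B. These 5 genes lay below the minimum for the main fit, so no difference between groups, or lack of one, is read from them.

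MMP1 (NM_001145938, chr11:102660641-102668966) had 1 read in each of mutp53-depleted 0 h replicate A and the 2 mutp53-depleted 16 h libraries. MMP13 (NM_002427, chr11:102813721-102826463) had 1 read in each mutp53-depleted 16 h library, and MMP3 (NM_002422, chr11:102706528-102714420) had 1 read in mutp53-depleted 16 h replicate B. None of the 3 had a read in the 4 control libraries, where a count of 0 in 34937173 reads on genes allows up to 3. That limit, like the counting intervals above, covers counting error only.

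The table lists 10 genes over this 435.2 kb stretch, namely 9 MMP genes and the pseudogene WTAPP1, and together they had 25 reads in the 8 libraries, 7 in control and 18 in the mutp53-depleted line. No gene of the cluster had more than 5 reads in any library, and MMP12, MMP27 and WTAPP1 had none. The nearest tested genes on each side were expressed. BIRC3, an NF-κB target that encodes an inhibitor of apoptosis, was 1 of the 3 on the MMP7 side. It had 7.98 and 16.7 normalized reads in the control line at 0 h and 1371 and 1169 at 16 h, and 188 and 176 in the mutp53-depleted line at 0 h and 2591 and 2541 at 16 h. It rose with TNF-α by 6.65 on the log2 scale in the control line (limma, adjusted p = 3.18e-14) and by 3.81 in the mutp53-depleted line (adjusted p = 1.02e-10), while MMP7, the MMP gene nearest to it, had at most 5 reads in a library.

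**Figure D4:**
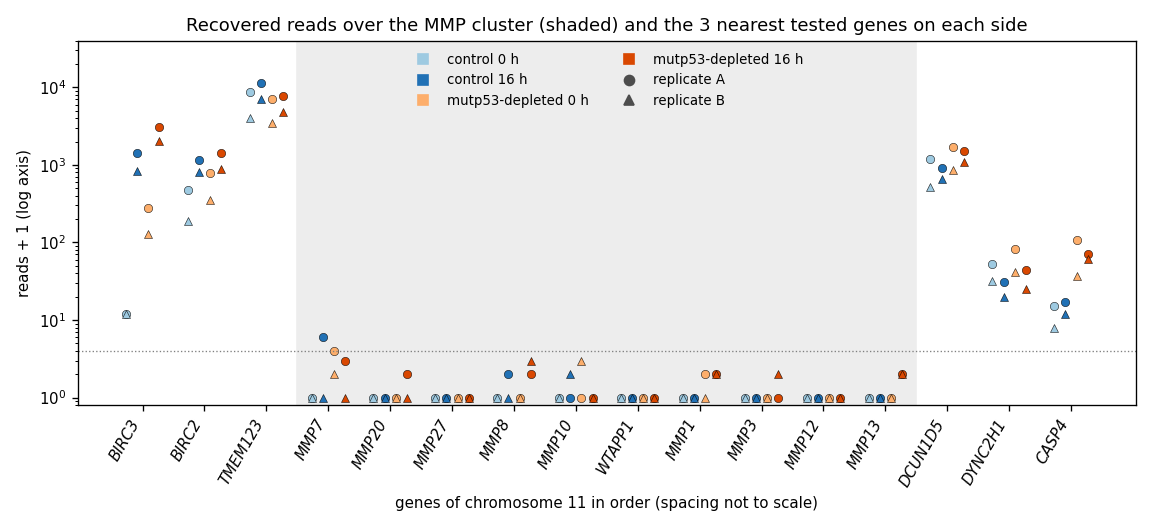
Recovered reads + 1 on a log axis for the 10 genes of the chromosome 11 cluster (shaded) and the 3 nearest tested genes on each side, in gene order and not to scale; colours are groups, circles replicate A and triangles replicate B, and the dotted line marks 3 reads. Every point in the shaded part is at 5 reads or fewer, whereas TMEM123 next to it reaches 11497.

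Over the whole family the table lists 23 MMP genes, of which 9 entered the fit, 13 had 10 reads or fewer over the 8 libraries and 4 had none. Of the other 17 MMP and TIMP genes, 8 were in the fit: 2 rose and 2 fell with depletion at 0 h, 2 rose and 1 fell at 16 h, 2 fell with TNF-α in the control line, and 1 rose and 2 fell in the mutp53-depleted line, where the shares over all tested genes were 27.3% and 25.2%, 24.9% and 26.5%, 15.2%, and 9.8% and 16.9%.

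MMP2, gelatinase A, which is activated by MMP14 with TIMP2, had 17.4 and 10.6 normalized reads in the control line at 0 h, 5.80 and 4.27 at 16 h, 44.2 and 63.1 in the mutp53-depleted line at 0 h, and 34.4 and 34.6 at 16 h. The control libraries held 24 and 7 MMP2 reads at 0 h and 6 and 3 at 16 h, so the sizes below rest on few control reads. All mutp53-depleted libraries lay above all control libraries. Depletion raised it by 1.88 ± 0.36 on the log2 scale at 0 h (SE, limma, adjusted p = 0.000258) and 2.57 ± 0.36 at 16 h (adjusted p = 9.71e-06), and TNF-α lowered it by 1.29 in the control line (-1.29, adjusted p = 0.0124). The last call was lost in DESeq2 (adjusted p = 0.123) and without control 0 h replicate A (adjusted p = 0.128) or control 16 h replicate B (adjusted p = 0.072).

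MMP24, a membrane-type MMP known from neurons, had 36.3 and 33.3 normalized reads in the control line at 0 h, 8.70 and 12.8 at 16 h, 69.0 and 72.7 in the mutp53-depleted line at 0 h, and 31.0 and 18.5 at 16 h. It fell with TNF-α by 1.63 on the log2 scale in the control line (-1.63, limma, adjusted p = 0.000738) and by 1.52 in the mutp53-depleted line (-1.52, adjusted p = 0.00140). It rose with depletion by 1.01 at 0 h (adjusted p = 0.0125) and 1.11 at 16 h (adjusted p = 0.00675). The calls for depletion were each lost without some single libraries, with adjusted p values between 0.0551 and 0.106 there.

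MMP11, stromelysin 3, went the other way with depletion at 16 h, and like MMP24 it fell with TNF-α in the mutp53-depleted line. Its normalized reads were 34.8 and 24.2 in the control line at 0 h, 18.4 and 11.4 at 16 h, and 18.1 and 15.1 in the mutp53-depleted line at 0 h, with no read in either mutp53-depleted 16 h library. Against a limit of 3 reads per library it was at least 4.78-fold lower than in the control line at 16 h and at least 5.33-fold lower than in the mutp53-depleted line at 0 h (limma, adjusted p = 1.24e-06 and 2.55e-06). TIMP4 had 11.6 and 24.2 normalized reads in the control line at 0 h and 5.36 and 2.74 in the mutp53-depleted line. The mutp53-depleted values rest on 8 and 2 reads. TIMP4 fell with depletion at 0 h (-1.87, limma, adjusted p = 0.00667). That call was lost without control 0 h replicate B (-1.37) or mutp53-depleted 0 h replicate B (-1.49).

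**Figure D5:**
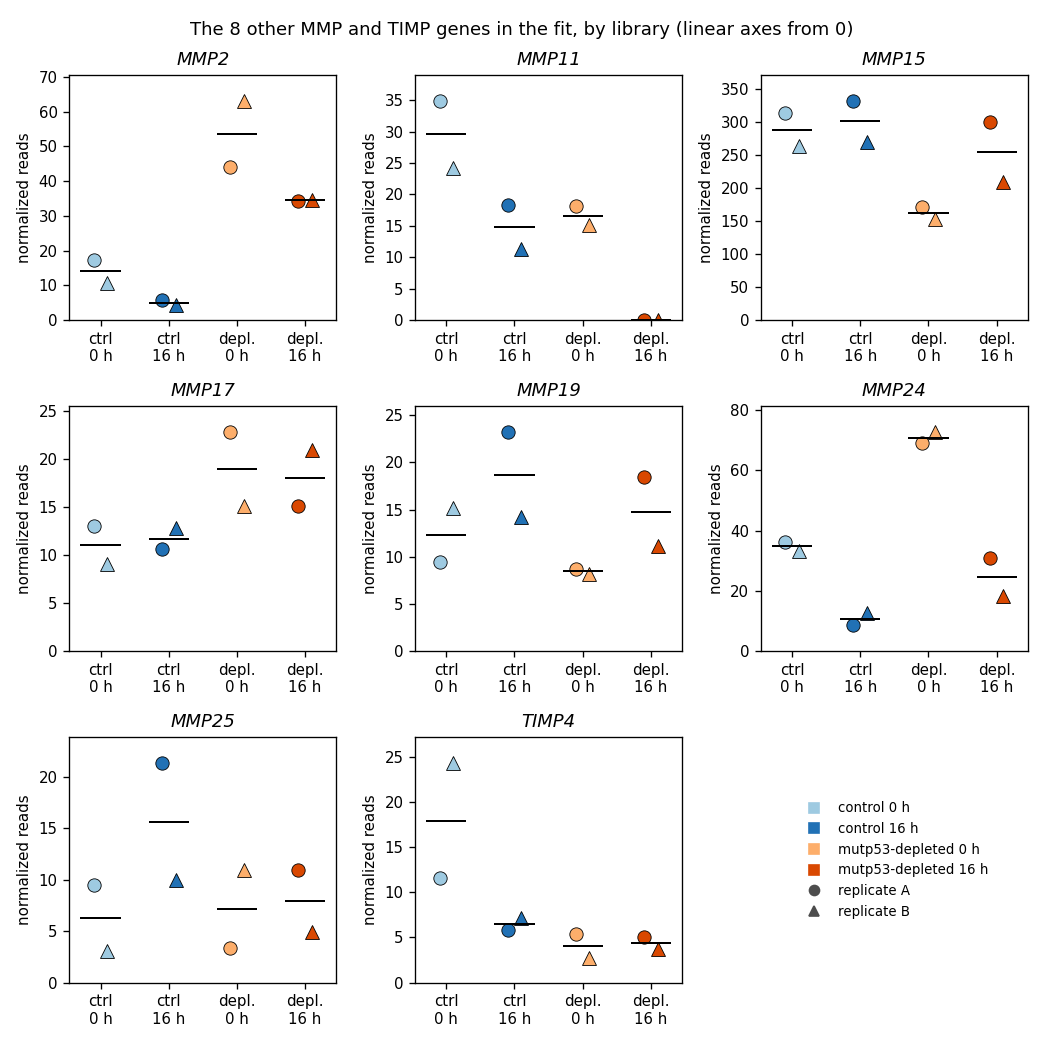
Normalized reads of the other 8 MMP and TIMP genes in the fit in each library, each on its own linear axis from 0; circles are replicate A, triangles replicate B and black lines group means. MMP2 and MMP24 are higher in the mutp53-depleted line at each time, and MMP11 has no read in the 2 mutp53-depleted 16 h libraries.

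Genes that act on MMP activity were taken from a list of 25 proteases of the activating cascade, their inhibitors and MMP partners, of which 22 were in the fit. At 2-fold, 2 rose and 6 fell with depletion at 0 h, 1 rose and 7 fell at 16 h, 5 rose and 2 fell with TNF-α in the control line, and 4 rose and 3 fell in the mutp53-depleted line. Over all tested genes the shares at 2-fold were 5.89% and 9.55%, 5.03% and 10.2%, 2.97% and 4.27%, and 1.86% and 4.5% in the same order. The median over the 22 was -0.37 and -0.65 on the log2 scale for depletion at 0 h and 16 h, against 0.03 and -0.01 over all tested genes.

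PLAU, the urokinase that converts plasminogen to plasmin, an activator of pro-MMPs, was among the induced genes. It had 52.3 and 60.6 normalized reads in the control line at 0 h and 781 and 454 at 16 h, and 61.0 and 59.0 in the mutp53-depleted line at 0 h and 1172 and 1196 at 16 h. TNF-α raised it by 3.38 ± 0.18 on the log2 scale in the control line (SE, limma, adjusted p = 7.46e-11) and by 4.28 ± 0.18 in the mutp53-depleted line (adjusted p = 6.72e-12). The difference between the responses, 0.90, had an adjusted p of 0.0638.

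PLAT, the tissue-type plasminogen activator, had 26.9 and 24.2 normalized reads in the control line at 0 h and 392 and 198 at 16 h, and 109 and 98.7 in the mutp53-depleted line at 0 h and 287 and 247 at 16 h. At 0 h the mutp53-depleted libraries were higher (1.98, limma, adjusted p = 8.30e-07), whereas at 16 h the lines overlapped (-0.06, adjusted p = 0.832). LCN2, lipocalin 2, which binds MMP9 and protects it from degradation, had between 33.8 and 51.5 normalized reads in the control libraries and between 111 and 293 in the mutp53-depleted libraries, and rose with depletion by 1.61 at 0 h (adjusted p = 2.14e-05) and 2.77 at 16 h (adjusted p = 2.66e-08).

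KLK6, KLK10 and TMPRSS2, which are serine proteases, fell with depletion at both times. KLK6 had 2272 and 1942 normalized reads in the control line at 0 h and 509 and 475.8 in the mutp53-depleted line (-2.09, limma, adjusted p = 3.49e-11), and 787 and 632 against 211 and 244 at 16 h (-1.63, adjusted p = 8.05e-10). KLK10 had 102 and 120 against 48.9 and 35.7 at 0 h (-1.38, adjusted p = 1.20e-05), and 363 and 317 against 36.9 and 32.1 at 16 h (-3.26, adjusted p = 2.47e-10). TMPRSS2 had 40.6 and 47.0 against 12.1 and 15.1 at 0 h (-1.62, adjusted p = 0.00431). The median of the other tested genes in the window around each was also below 0. For depletion at 0 h and 16 h it was -0.57 and -0.46 for KLK6, -0.48 and -0.41 for KLK10, and -0.42 and -0.45 for TMPRSS2. Over the alternatives, which include removal of this median, the smallest 0 h differences were -1.52, -0.89 and -1.20 in the same order.

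The related ADAM and ADAMTS metalloproteinases had 18 of 30 genes in the fit. At 2-fold, 1 rose and 3 fell with depletion at 0 h, 1 rose and 2 fell at 16 h, 2 fell with TNF-α in the control line and 3 in the mutp53-depleted line, beside 5.89% and 9.55%, 5.03% and 10.2%, 4.27% and 4.5% of all tested genes. ADAMTS19 had 317 and 288 normalized reads in the control line at 0 h and 34.9 and 27.4 in the mutp53-depleted line (-3.25, limma, adjusted p = 7.00e-10), and ADAM15, a membrane disintegrin, 2698 and 2731 against 1220 and 1235 (-1.14, adjusted p = 3.40e-09). ADAMTS8, a secreted protease with antiangiogenic activity, fell with TNF-α in both lines (-1.57 and -1.05, adjusted p = 3.62e-09 and 9.21e-07).

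Among 25 MMP substrates of the matrix, 15 were in the fit. At 2-fold, 2 rose and 4 fell with depletion at 0 h and 1 rose and 2 fell at 16 h, beside 5.89% and 9.55%, and 5.03% and 10.2%, of all tested genes. LAMB3, a laminin chain of the basement membrane, had 590 and 715 normalized reads at 0 h and 1550 and 1465 at 16 h in the control line, and 1103 and 1131 at 0 h and 2327 and 2416 at 16 h in the mutp53-depleted line. It was higher in both mutp53-depleted libraries than in the control libraries of the same time, and rose with TNF-α by 1.21 on the log2 scale in the control line (limma, adjusted p = 3.12e-09) and by 1.09 in the mutp53-depleted line (adjusted p = 1.87e-08). TNC and HSPG2 fell with depletion at both times, with log2 differences of -1.56 and -1.46 for TNC and -1.22 and -1.45 for HSPG2.

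Some colon epithelial markers moved with depletion and with TNF-α, and markers of other cell types were low in sum. The summed level of 8 colon epithelial markers lay between 56292 and 70708 normalized reads in the control line and between 42729 and 52480 in the mutp53-depleted line. Of these, 7 were in the fit. With depletion 1 rose and 5 fell at 0 h, and 2 rose and 5 fell at 16 h. With TNF-α 1 rose and 5 fell in each line. The shares over all tested genes were 27.3% and 25.2%, 24.9% and 26.5%, 11.1% and 15.2%, and 9.8% and 16.9%. VIL1, villin of the brush border, had 545 and 480 normalized reads in the control line at 0 h and 8.71 and 12.3 in the mutp53-depleted line. With TNF-α, CDH1, the epithelial cadherin, fell from 485 and 467 to 87.0 and 78.3 in the control line (-2.51, limma, adjusted p = 1.06e-10) and from 275 and 265 to 58.7 and 61.7 in the mutp53-depleted line (-2.15, adjusted p = 1.35e-09). VIL1 fell in both lines (-2.10 and -2.21, limma, adjusted p = 0.00469 and 0.00328), and the intestinal factor CDX2 fell in both, past 2-fold in the control line (-1.07 and -0.98). With depletion CDX2 rose at 16 h (0.21, limma, adjusted p = 0.0359). KRT19 was higher with TNF-α in both lines and with depletion at both times. It had 7394 and 7114 normalized reads in the control line at 0 h and 8437 and 8465 at 16 h. The mutp53-depleted line had 8647 and 8716 at 0 h and 9957 and 10221 at 16 h. The sum of 8 fibroblast markers was 29.9 to 39.4 in the control line and 57.0 to 178 in the mutp53-depleted line, where COL1A1 and PDGFRB carried it and COL3A1 and DCN had no read. The sum of 8 leukocyte markers was 22.8 to 41.9 over the 8 libraries, with no read for PTPRC, but within it the integrin gene ITGAM went from no read to 22.2 and 11.4 normalized reads in the control line with TNF-α, and from 2.01 and 0 to 27.7 and 25.9 in the mutp53-depleted line (limma, adjusted p = 8.45e-05 and 0.000116). The part of these marker changes in the MMP and TIMP differences was not tested, and in bulk libraries fewer cells of a type and less RNA per cell cannot be told apart.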

How the data were processed

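The mRNA-seq libraries, 2 per group, came from 4 of the 17 samples; the other 13 (ChIP-seq, GRO-seq and input) were not analysed here. The paper's methods name 50-base single-end reads from strand-specific poly(A) libraries mapped with STAR. The signal values deposited by the authors are exon reads from HOMER multiplied by 1 factor per library, and dividing by the value of 1 read gave whole reads for 100% of the values within a tolerance of 0.0051. The header and coordinates of the table give hg19, whereas the methods name hg38. The log2 fold changes and p-values of 4 comparisons that the authors deposited from edgeR were not used. Replicate letters come only from column names.

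Values were compared as log2(value + 1) with limma 3.58.1 in R 4.3.3 (eBayes with trend, all 8 libraries in 1 fit of the 4 group means), for genes whose mean reached 2.5, and p-values were adjusted by Benjamini and Hochberg over 14800 genes. The interaction subtracts the depletion effect at 0 h from that at 16 h. The alternatives were median-ratio scaling, no filter, a minimum mean of 10, a pseudocount of 0.1 or 5, a replicate block, edgeR 4.0.16, DESeq2 1.42.0, removal of the median of a window of 51 genes, and leaving out each library. A window without the gene itself was added after the data were seen. On simulated data limma recovered 200 of 200 changed genes among 14800, with 3 false calls. In the libraries, 27.3% of all tested genes rose and 25.2% fell with depletion at 0 h. Recovery with so large a share of changed genes was not tested. Power at the effect sizes and read counts of the members was not tested either. Plots used Python 3.11.15 and matplotlib 3.10.9.

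The members, lists and tests were chosen with earlier results of these data known. Named list genes are those called in any contrast, at most 8 per list by the largest change. BIRC3 and TMEM123, from the genes beside the cluster, and the marker genes VIL1, COL1A1, PDGFRB, COL3A1, DCN, PTPRC, CDH1, CDX2 and ITGAM were named after their values were seen. So were MMP15, from the other MMP genes, and the marker gene KRT19. The values of some list genes are not reported here.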

Additional observations from a re-analysis of the deposited data

Results flagged for a closer look

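None of the MMP and TIMP genes of the main list differed between the lines in their TNF-α response by the interaction in limma, but 4 genes on the lists beside them did. PLAT rose less with TNF-α in the mutp53-depleted line than in the control line, by 1.35 against 3.40 on the log2 scale, a difference of -2.05 (adjusted p = 0.0011). KLK10 rose by 1.61 in the control line and gave -0.27 in the mutp53-depleted line, which differed by -1.88 (adjusted p = 0.0006). MMP11 differed by -3.17 (adjusted p = 0.011), with no read in either mutp53-depleted 16 h library. That call was lost with a pseudocount of 5 (adjusted p = 0.109) and without control 0 h replicate B (0.0776), mutp53-depleted 0 h replicate A (0.0686) or control 16 h replicate A (0.0544). LAMA3, a laminin chain, differed by 0.627 (adjusted p = 0.006).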

How the results depend on the processing

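The counts of members changed at least 2-fold held in most alternatives. The 1 member lower at 0 h (TIMP1) ranged from 0 to 2 when single libraries were left out, because TIMP1 fell short of 2-fold without control 0 h replicate A or mutp53-depleted 0 h replicate B and MMP9 joined it without control 0 h replicate B. The 1 member lower at 16 h (MMP9) became 0 with a pseudocount of 0.1 and ranged from 0 to 1 when single libraries were left out. For TNF-α in the control line the count of members higher ranged from 1 to 2, with MMP14 added without control 16 h replicate B. The count of members higher in the interaction ranged from 0 to 1, and the 424 genes of the whole table that differed in the interaction fell to between 208 (without mutp53-depleted 0 h replicate B) and 421 when single libraries were left out, with 278 without control 0 h replicate A, 265 without mutp53-depleted 16 h replicate B and 233 without mutp53-depleted 0 h replicate A. The other alternatives gave between 292 (no filter) and 559 (replicate letter in the model).

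MMP9 at 0 h, where both lines had 3 reads or fewer per library, turned from -0.46 to 0.37 without control 0 h replicate A and was -1.30 (adjusted p = 0.0148) without control 0 h replicate B, and its interaction turned from -1.01 to 0.16 (adjusted p = 0.998) in DESeq2; the cause was not tested beyond these read counts. Over all the alternatives for single genes, 1527 values kept their direction and side of the threshold, 46 lost a call, 2 gained one and 2 turned. TIMP2 lost its depletion calls in both versions of the local window, of which the planned one held TIMP2 itself as its median gene at 16 h. The replicate letters were not taken to pair the libraries, since the correlation of the A less B differences lay between -0.0773 and 0.216 over the 6 pairs of groups and passed 0.1 in 3 of them, so pairing was not settled. The model with the replicate letter changed no call of a member and gave 559 genes in the interaction. At the read depth of the smallest library, 3 reads are 4.54 normalized reads, which limits what can be said of the chromosome 11 genes.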

Other observations

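Over the 8 libraries the genes whose log2 values followed each member most closely by Pearson's r were LIMD2 (0.996), CD83 (0.994) and UNC13A (0.994) for MMP9, TPRA1 (0.991), PLAU (0.987) and CPEB2 (0.984) for MMP14, HYAL2 (0.995), GLB1L2 (0.992) and PVRL1 (0.992) for TIMP1, and POC1B (0.997), EZR (0.997) and USP5 (0.996) for TIMP3. PLAU was also on the list of genes that act on MMP activity. The 8 libraries are 4 groups of 2, so these values describe the group pattern, and 329, 222, 1502 and 1371 of the tested genes reached an r of at least 0.9 with MMP9, MMP14, TIMP1 and TIMP3.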
